A study of Drosophila melanogaster with 12 samples.

Results

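Oxidative phosphorylation genes were taken as the probe sets that the array annotation assigns to 1 gene whose symbol starts with ND-, COX and a digit, UQCR-, ATPsyn or Sdh. The rule found 69 probe sets of 67 genes among the 13966 probe sets that are not controls, and none was removed for a low signal. By respiratory complex they comprised 31 genes of complex I, 6 of complex II, 4 of complex III, 11 of complex IV, 14 of complex V and 1 assembly factor of complex II. Of these 67 genes, 17 are named as duplicates of another subunit, with an L added to the parent's symbol or family name, and are called paralogs here. RefSeq lists 91 symbols that meet the rule, and 24 of them had no probe set of their own among the members, including SdhA, UQCR-C1 and UQCR-C2, ND-23, ND-24, ND-30 and ND-49, and the mitochondrially encoded COX1, COX2 and COX3.

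The study hybridised head RNA of male Drosophila melanogaster, 5 days old and of the laboratory wild-type strain Canton-S, to Affymetrix arrays of 1 colour after 21 generations of selection. There were 4 populations with 3 arrays each. Aggressive I and aggressive II were bred from males chosen for aggressive behaviour. Neutral I and neutral II were bred from males drawn at random out of a cage of 120 after 15 to 30 aggressive ones had been taken away, and the study describes them as selected for less aggression without a significant response. All flies shared strain, sex, age and time of freezing, and the labels name no transgene or drug. A regime was thus represented by 2 populations, which limits how far a difference can be tied to selection, and whether a population's arrays derive from separate cultures is not in the labels, so their spread may be technical. RNA came from whole heads, so fewer cells of a type and less RNA per cell cannot be told apart.

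Oxidative phosphorylation makes most of the ATP of neurons and muscle. Complexes I and II pass electrons from NADH and succinate to ubiquinone, complex III hands them to cytochrome c, complex IV reduces oxygen with them, and complex V, the ATP synthase, uses the proton gradient that complexes I, III and IV build. Nearly all subunits are encoded in the nucleus and must be made in matched amounts, and many fly subunit genes have a duplicate that is transcribed mainly in testis.

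Values are MAS5 signals, a summary of probe intensities on a linear scale that the authors scaled to the same trimmed mean of 2500 on every array. Median signal per array lay between 962.4 and 1050. The 52 member probe sets that are not paralogs had mean signals from 56.6 to 84266 (median 25341), and 48 of them were in the top 10th of all probe sets. The 17 paralogs had mean signals from 33.9 to 3080 (median 282.2). Signals of different probe sets also reflect their probes, so they are not ranked as transcript levels. Among the members, 56 lay above the 40th percentile of mean signal (641.2), ND-51L2 being just above it at 672 and ND-24L just below it at 629.9. Within a population, the coefficient of variation over 3 arrays had a median of 6.39% for the members that are not paralogs and 37.6% for the paralogs, whose values are accordingly less precise.

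**Figure D1:**
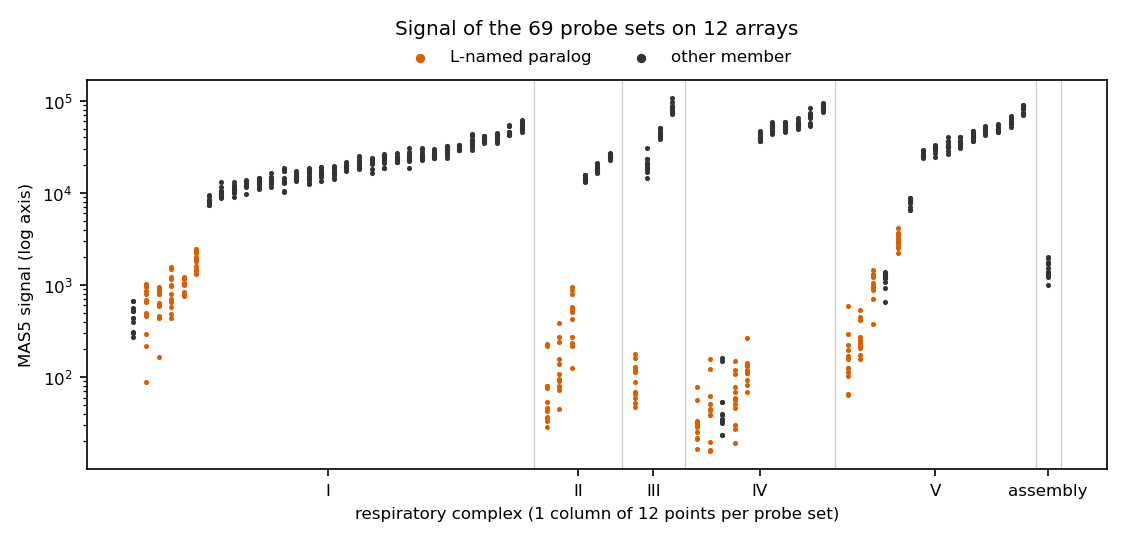
MAS5 signal (log axis) of each of the 69 probe sets on the 12 arrays, 1 column of points per probe set, grouped by complex and ordered by mean signal. Paralogs (orange) have mean signals of at most 3080 and a wider vertical spread than the other members (dark), 48 of which are in the top 10th of all probe sets.

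For differences, signals were transformed as log2(signal + 94.6) and centred on each array's median, and limma with Benjamini-Hochberg adjustment over all 13966 probe sets was used at a threshold of 0.05. In the comparison of aggressive with neutral populations 0 of the 69 member probe sets passed, against 10 of 13966 in all (0.0716%). The median log2 difference of the members was 0.11 and 56 of 69 were above 0, beside 0.014 and 53.2% over all probe sets. That median rested on single populations, being 0.018 without aggressive I, 0.21 without aggressive II and 0.17 without neutral II. At an unadjusted p under 0.05, 3 members were higher and 0 lower in the aggressive populations, where 3.62% and 3% of all probe sets were. The smallest adjusted p of a member was 0.695. In 0 members did all 6 aggressive arrays lie above all 6 neutral arrays, and in 0 did they lie below. Of all probe sets, 0.523% and 0.301% separated in these ways. The median standard error of 52 members that are not paralogs was 0.098, which gives a 95% interval of about ±0.21 around a log2 difference. Population was a random block in this fit, with a consensus correlation of 0.0113, so arrays of a population counted as nearly independent. Standard errors, p-values and intervals between the regimes may therefore understate the uncertainty that comes from 2 populations per regime.

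Population by population, the members' values fell into an order that did not follow the regimes. For each probe set the deviation from its own mean over 12 arrays was taken, and the median over the 52 members that are not paralogs was computed on each array. The median deviations were 0.13, 0.15 and 0.18 on the aggressive I arrays and 0.041, 0.0023 and -0.12 on the aggressive II arrays. On the neutral I arrays they were -0.18, -0.053 and -0.086, and on the neutral II arrays 0.037, 0.036 and -0.063. The 3 aggressive I arrays were thus the highest of the 12, neutral I was below 0 on all 3 arrays, and the ranges of aggressive II and neutral II overlapped. Array 3 of aggressive II and array 1 of neutral I were lower than the other arrays of their populations. Of the 52 probe sets, 44, 42 and 49 exceeded their own 12-array median on the aggressive I arrays and 34, 28 and 6 on the aggressive II arrays, against 4, 13 and 8 in neutral I and 36, 36 and 12 in neutral II.

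**Figure D2:**
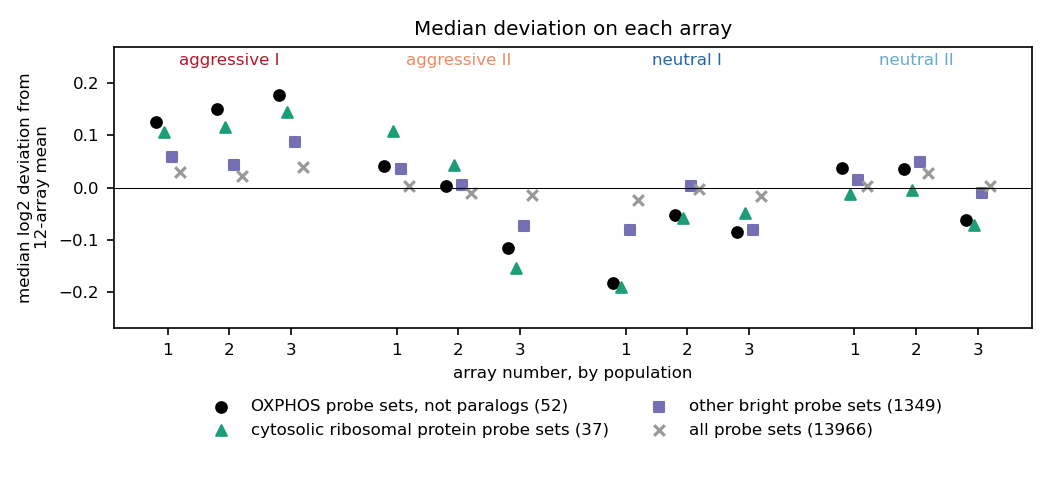
Median log2 deviation from the 12-array mean (vertical axis) on each array, by population, for the 52 oxidative phosphorylation probe sets that are not paralogs, 37 cytosolic ribosomal protein probe sets, 1349 other probe sets in the top 10th of signal and all 13966 probe sets. The oxidative phosphorylation median is highest on the 3 aggressive I arrays and lowest on array 1 of neutral I, and the ribosomal and other bright probe sets move the same way on most arrays.

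Set pair by pair, the difference was largest for aggressive I against neutral I. The members' median log2 difference was 0.27 there, 0.16 for aggressive I against neutral II, 0.09 for aggressive II against neutral I and -0.028 for aggressive II against neutral II. Over all probe sets the medians of these 4 comparisons were 0.042, 0.026, 0.0053 and -0.013. These pairs share populations, so they are not independent of each other. No member passed in any of them. Of all probe sets, 0.15% passed for aggressive I against neutral I, 0.308% for aggressive I against neutral II, 0.122% for aggressive II against neutral I and 0.301% for aggressive II against neutral II. After centring, all 3 arrays of aggressive I lay above all 3 of neutral I for 41 of 69 members (59.4%), against 10.4% of all probe sets. For aggressive I against neutral II this held for 28 members (40.6%, against 8.96% of all). For aggressive II against neutral I it held for 8 members (11.6%, against 6.34%). Among probe sets in the top 10th of signal it held there for 12.5% of the members and 12.2% of the others. In aggressive II against neutral II, 6 members lay wholly below (8.7%, against 7.8% of all probe sets) and 1, ATPsynCF6, wholly above. In 3 members (4.35%, against 1.15%) aggressive I lay wholly above neutral I while aggressive II lay wholly below neutral II.

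Between the 2 populations of a regime the differences were of similar size. Aggressive I exceeded aggressive II with a median log2 difference of 0.16 over the members, and all 3 arrays of aggressive I lay above all 3 of aggressive II for 26 of 69 (37.7%, against 9.66% of all probe sets). Neutral I against neutral II gave a median of -0.098, and neutral I lay wholly below neutral II for 10 members (14.5%, against 7.55%). Among probe sets in the top 10th of signal the latter held for 16.7% of the members and 18.3% of the others. No member passed in either comparison, where 0.186% and 0.115% of all probe sets did. Aggressive I had the highest of the 4 population means for 51 members (73.9%, against 32% of all probe sets), and neutral I the lowest for 48 (69.6%, against 27.3%). The interaction, the aggressive I minus neutral I difference less that of aggressive II minus neutral II, had a median of 0.29 over the members and passed for none of them, against 0.2% of all probe sets. It matches populations by the numbers in the sample titles, which do not state that populations of the same number were paired.

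Differences of other bright probe sets were smaller in size. For the 1349 probe sets in the top 10th of signal that are no members, the median log2 difference was 0.12 for aggressive I against neutral I, 0.042 for aggressive I against neutral II, 0.049 for aggressive II against neutral I and -0.022 for aggressive II against neutral II. All 3 arrays of aggressive I lay above all 3 of neutral I for 411 of the 1349 (30.5%), beside 38 of the 48 members in that range of signal (79.2%). For aggressive I against neutral II these shares were 19.8% and 56.2%, and for aggressive I against aggressive II 23.6% and 45.8%. In aggressive II against neutral II, 16% of the other bright probe sets and 6.25% of the bright members lay wholly below. When each array was instead centred on those bright probe sets, a setting chosen after seeing the data, the members' median for aggressive I against neutral I was 0.17 and 21 of 69 lay wholly above (30.4%, against 5.46% of all probe sets under that centring). With quantile normalization these values were 0.12 and 22 (31.9%, against 7.67%). The size of the difference of aggressive I from neutral I therefore depended on the scaling by over 1.5 times, and its direction did not. The sign for aggressive II against neutral II turned with the processing, to 0.00231 without centring, 0.003435 with quantile normalization, 0.022 with centring on the bright probe sets and 0.0081 without array 3 of aggressive II.

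**Figure D3:**
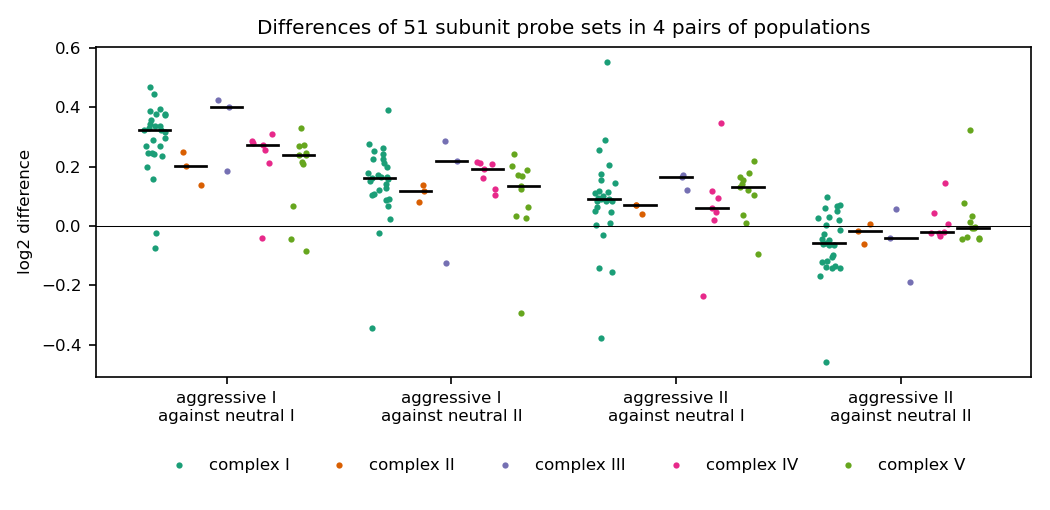
Log2 differences (vertical axis) of the 51 subunit probe sets that are not paralogs in the 4 pairs of an aggressive and a neutral population, coloured by complex, with a black line at the median of each complex. Medians of all 5 complexes are above 0 in the 3 pairs with aggressive I or neutral I and below 0 for aggressive II against neutral II.

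Complex I, the largest complex and the entry point for electrons from NADH, supplied 32 probe sets, 27 of them not paralogs. For these 27 the median log2 difference was 0.32 for aggressive I against neutral I and 0.16 for aggressive I against neutral II. It was 0.091 for aggressive II against neutral I and -0.057 for aggressive II against neutral II. All 3 arrays of aggressive I lay above all 3 of neutral I for 23 of the 27 probe sets, beside 10.4% of all probe sets and 30.5% of the other bright ones. Aggressive I had the highest population mean for 24, beside 32% of all probe sets.

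The core subunits, which carry the flavin and the iron-sulfur clusters, did not all behave alike. ND-20 belongs to the module that passes electrons to ubiquinone. Its signal was 30408, 31295 and 31634 on aggressive I arrays and 32078, 32550.1 and 28419.7 on aggressive II arrays, with 23673, 27643 and 25767 on those of neutral I and 29805, 28499 and 26839 on those of neutral II. Both aggressive means were above both neutral means, although 1 aggressive II array lay below neutral II arrays. The log2 difference of aggressive from neutral was 0.22 (1.16-fold, SE 0.093, limma adjusted p = 0.719), the smallest p of a complex I member. ND-75, the large iron-sulfur subunit of the NADH arm, had 18741, 20282 and 17906 in aggressive I and 18828, 18174 and 17154 in aggressive II, and 19833, 19016 and 21755 in neutral I and 19905, 19971 and 18610.1 in neutral II. Its lowest population was aggressive II and its highest neutral I, with a log2 difference of -0.082 between the regimes (95% interval -0.26 to 0.093). ND-51, the flavin subunit that binds NADH, was closer to the other members, at 0.16 for aggressive I against neutral I and 0.0027 for aggressive II against neutral II.

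Among accessory subunits of the membrane arm, small proteins that the human enzyme needs for its assembly, ND-MWFE set aggressive I apart. It had 52750.3, 53813 and 55133 on aggressive I arrays and 46175, 44466 and 42705 on aggressive II arrays, with 42268, 44047 and 44208 on those of neutral I and 44839.7, 46250.5 and 43935 on those of neutral II. Every aggressive I array was above every other array, and the other 3 populations overlapped. The log2 difference was 0.37 for aggressive I against neutral I (SE 0.10, limma adjusted p = 0.348) and 0.33 for aggressive I against aggressive II (adjusted p = 0.338). With a variance trend over signal and a robust prior, both passed (adjusted p = 0.0214 and 0.0389). Under that setting 0.444% and 0.644% of all probe sets passed, against 0.15% and 0.186% without it.

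ND-ASHI, another accessory subunit of the membrane arm, was highest in the same population. Its signal was 18852, 19622 and 18533 on aggressive I arrays and 16780.4, 16261 and 15523 on aggressive II arrays, with 14461, 14224 and 16763 on those of neutral I and 17472, 16920.1 and 16525 on those of neutral II. The aggressive I arrays were the highest, and neutral I lay below neutral II after centring. The difference of aggressive I from neutral I was 0.39 (SE 0.11, limma adjusted p = 0.329). With the trended and robust variance its adjusted p was 0.0426, where 0.444% of all probe sets passed. ND-PDSW and ND-B22, also of the membrane arm, had their 3 highest arrays in aggressive I as well, with differences from neutral I of 0.34 and 0.27.

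ND-15, an accessory subunit on the intermembrane-space side of the membrane arm, had a pattern of its own. Its signal was 13525, 13555 and 14451 on aggressive I arrays and 12949, 18699 and 17419.9 on aggressive II arrays, with 10429, 13004 and 10171 on those of neutral I and 17942, 18199 and 17226 on those of neutral II. Neutral I was low and neutral II high without overlap, aggressive I lay between them, and the aggressive II arrays were split, array 1 being below aggressive I and the others near neutral II. The log2 difference of neutral I from neutral II was -0.72 (SE 0.16, limma adjusted p = 0.273). It passed with the trended and robust variance (adjusted p = 0.0321), beside 0.329% of all probe sets. With only the probe sets above the 60th percentile of signal tested it also passed (0.0388), beside 0.841% of those. The ratio of its highest to its lowest population mean was 1.59, whereas 49 of the 52 members that are not paralogs had a ratio under 1.5 (median 1.17).

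ND-B8, an accessory subunit of the matrix arm, was dim, with a mean signal of 470.6. It had 669, 669.5 and 552 on aggressive I arrays and 392, 274 and 304 on aggressive II arrays, with 523, 308 and 563 on those of neutral I and 434, 444 and 516 on those of neutral II. Aggressive I was highest and aggressive II lowest of the populations, and neither overlapped neutral II. The log2 difference between the aggressive populations was 0.85 (SE 0.19, limma adjusted p = 0.148), and that of the interaction 0.93 (adjusted p = 0.339).

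ND-B14, ND-42 and ND-B14.5B, accessory subunits, had the smallest p-values of complex I after ND-20, with log2 differences between the regimes of 0.21, 0.15 and 0.20 (adjusted p = 0.747, 0.781 and 0.784). The ND-MNLL gene was measured by a pair of probe sets, which gave 0.24 and 0.31 for aggressive I against neutral I, and 0.029 and 0.027 for aggressive II against neutral II. For aggressive I against neutral I, ND-19, ND-39, ND-ACP (the mitochondrial acyl carrier protein), ND-B12, ND-B14.5A, ND-B14.7, ND-B16.6, ND-B17, ND-B18 and ND-SGDH lay between 0.25 and 0.44. Each of these had separate arrays after centring. In signal, array 2 of aggressive I (10215) lay below array 3 of neutral I (10366) for ND-B12. ND-18 and ND-B17.2 had overlapping arrays (0.20 and 0.25), as did ND-13A, which like ND-75 had no excess in aggressive I (-0.076). ND-18, ND-13A and ND-B17.2 are accessory subunits of the matrix arm.

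**Figure D4:**
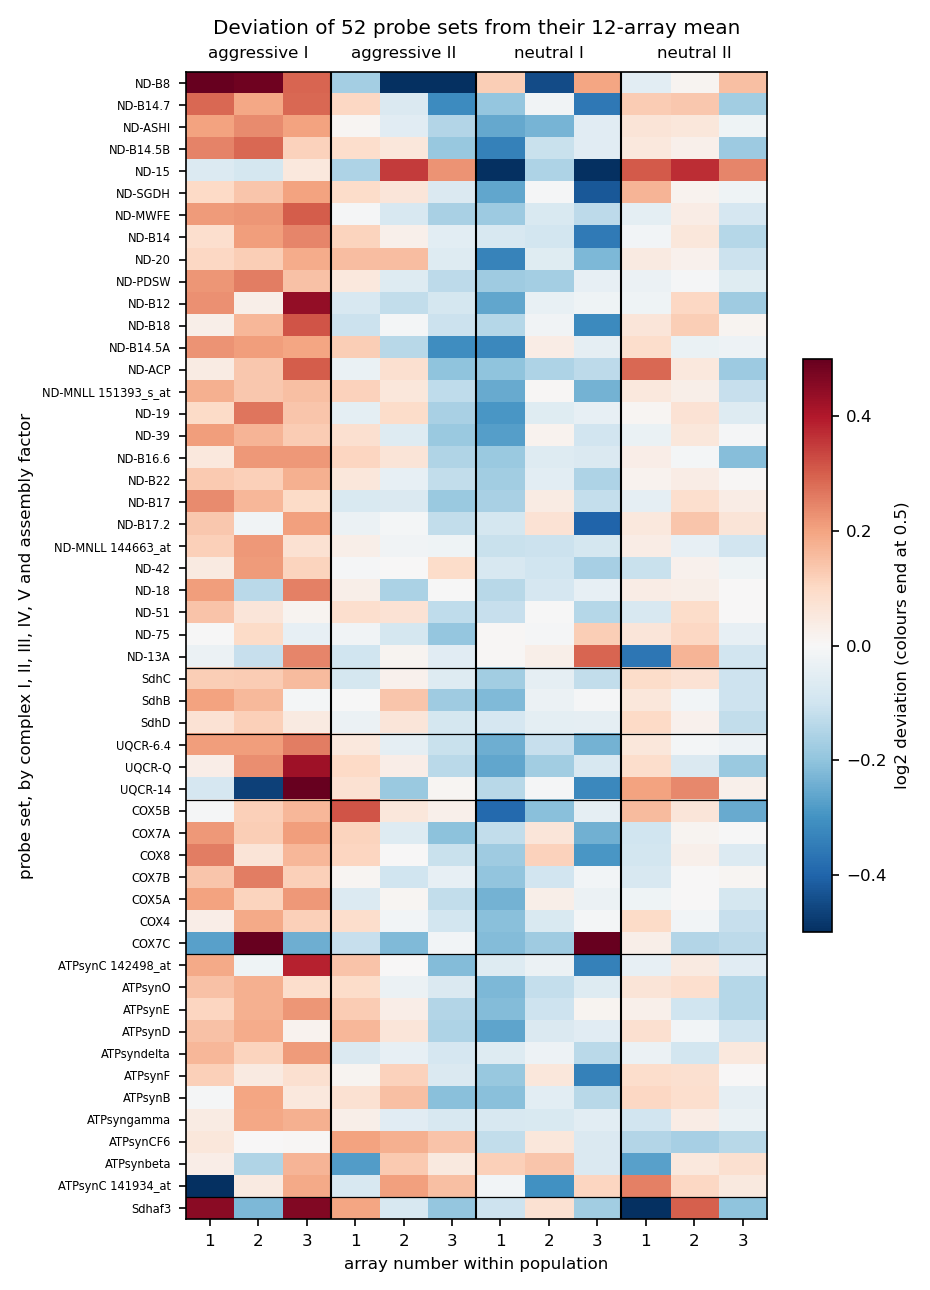
Log2 deviation from the 12-array mean of the 52 probe sets that are not paralogs (rows, by complex and ordered by the difference of aggressive I from neutral I) on the 12 arrays (columns, by population). Red is above and blue below the mean, with colours ending at 0.5 either way. Aggressive I is red and neutral I blue in most rows, array 3 of aggressive II is blue, and ND-15, ND-75, COX7C and ATPsynCF6 depart from the common pattern.

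Complex II, succinate dehydrogenase, belongs both to the respiratory chain and to the citric acid cycle, and its subunits SdhB (iron-sulfur protein), SdhC and SdhD (membrane anchors) were measured. SdhC had 15517, 15782 and 15602 on aggressive I arrays and 13629, 14906 and 14284 on aggressive II arrays, with 13289, 14065 and 13917 on those of neutral I and 15457, 14822 and 13543 on those of neutral II. Each aggressive I array lay above every neutral array, whereas aggressive II overlapped both neutral populations. For aggressive I against neutral I the log2 differences were 0.20 (SdhB), 0.25 (SdhC) and 0.14 (SdhD). For aggressive II against neutral II they were 0.0062, -0.063 and -0.019, in the same order. Between the regimes the differences were 0.10, 0.094 and 0.059 (95% intervals -0.099 to 0.31, -0.097 to 0.28 and -0.11 to 0.23).

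Sdhaf3, an assembly factor that helps to insert the iron-sulfur clusters of SdhB, had 1992, 1229.7 and 1968 on aggressive I arrays and 1684, 1395 and 1303 on aggressive II arrays, with 1399.5, 1544 and 1342 on those of neutral I and 996, 1766 and 1262 on those of neutral II. All populations overlapped, and the log2 difference between the regimes was 0.21 (SE 0.17).

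In complex III, ubiquinol-cytochrome c reductase, UQCR-6.4, a small subunit of the membrane part, showed the order of populations with little spread. Its signal was 49983, 50723 and 50674 on aggressive I arrays and 45609.8, 43268 and 41916 on aggressive II arrays, with 38449, 40631 and 39081 on those of neutral I and 45856, 42562 and 43399.7 on those of neutral II. Aggressive I was highest and neutral I lowest with no overlap with the other populations, and aggressive II and neutral II overlapped. The log2 difference of aggressive I from neutral I was 0.42 (SE 0.10, limma adjusted p = 0.274), and the interaction was 0.47 (adjusted p = 0.432). Both passed with the trended and robust variance, with adjusted p = 0.0102 and 0.045, where 0.444% and 0.451% of all probe sets passed.

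UQCR-Q, which lies beside cytochrome b, had 83245, 96939 and 107194 on aggressive I arrays and 88776, 86062 and 77636 on aggressive II arrays, with 71535, 73566 and 81868 on those of neutral I and 88224, 76685 and 73172 on those of neutral II. Aggressive I lay above neutral I, and aggressive II overlapped neutral II. The log2 difference between the regimes was 0.23 (SE 0.11, adjusted p = 0.752). UQCR-14, which binds ubiquinone in the bovine enzyme, varied within aggressive I, with 18668, 14490.1 and 30549.8, and had 21233, 17977 and 20906 in aggressive II, 18952, 20131 and 16868 in neutral I and 23224, 23222 and 20608 in neutral II. The log2 difference between the regimes was -0.0016 (95% interval -0.37 to 0.37). Its sign depended on the populations included, at 0.031 without aggressive II and 0.15 without neutral II, and ran from -0.13 to 0.092 with single arrays left out.

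Complex IV, cytochrome c oxidase, holds its catalytic centre in the mitochondrially encoded subunits, which had no member probe set, and the nuclear subunits around them regulate and stabilise it. COX5B, the zinc-binding subunit on the matrix side, had 65348, 72217 and 72260.3 on aggressive I arrays and 82983, 70464 and 69912 on aggressive II arrays, with 52671, 57728 and 67678 on those of neutral I and 74605, 67793 and 56196 on those of neutral II. Both aggressive means were above both neutral means, and aggressive arrays overlapped neutral II. It had the largest difference between the regimes in the complex, 0.23 (SE 0.11, limma adjusted p = 0.77).

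COX7B, a membrane subunit, had 59921, 65819 and 58000.4 on aggressive I arrays and 55700.2, 52377 and 55412 on aggressive II arrays, with 49956, 51841 and 57357 on those of neutral I and 52501, 54018 and 55999 on those of neutral II. Only aggressive I lay apart, and the other populations overlapped. The differences of aggressive I from neutral I were 0.21 for COX4, which spans the membrane, and 0.26 for COX5A, on the matrix side. They were 0.28 for COX7A, 0.27 for COX7B and 0.28 for COX8, small membrane subunits. Those of aggressive II from neutral II were 0.0047, -0.024, -0.024, -0.022 and 0.045, in the same order. Between the regimes COX8, COX7B and COX7A came next to COX5B, at 0.16, 0.13 and 0.13 (adjusted p = 0.823, 0.845 and 0.854). COX7C was at the level of the dimmest probe sets, with 23.7, 150.2 and 23.8 on aggressive I arrays and 39.5, 32.1 and 53.6 on aggressive II arrays, with 35, 34.2 and 161 on those of neutral I and 54.1, 33.3 and 38.8 on those of neutral II. A single array in each of aggressive I and neutral I stood out, and no difference was detectable (95% interval between the regimes -0.49 to 0.42).

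In complex V, the enzyme that makes ATP, subunits that did not follow the other members included a stalk subunit and the catalytic one. ATPsynCF6, coupling factor 6 of the peripheral stalk, which holds the catalytic head still while the rotor turns, had 36141, 35284 and 34206 in aggressive I and 40535, 40570.1 and 40232 in aggressive II. It had 33589, 36803 and 35142 in neutral I and 31932, 30653 and 32236 in neutral II. Aggressive II was highest and neutral II lowest without overlap with the other populations, and aggressive I overlapped neutral I. The log2 difference between the regimes was 0.20 (SE 0.081, limma adjusted p = 0.695), the smallest p of any member. Aggressive II against neutral II gave 0.32 (adjusted p = 0.392), and aggressive I against neutral I gave 0.068. With the trended and robust variance the former had an adjusted p of 0.0337, where 0.687% of all probe sets passed. ATPsynCF6 was the only member with aggressive I wholly below aggressive II and the only one with neutral I wholly above neutral II.

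**Figure D5:**
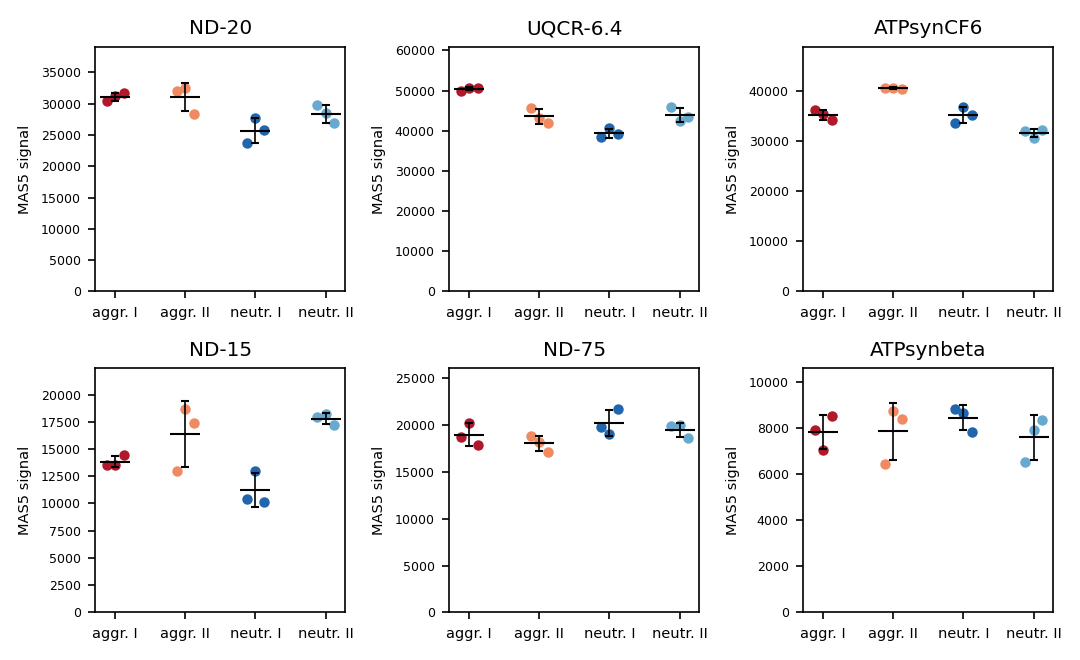
MAS5 signal (linear axis from 0) of 6 members on each array, by population, with the mean and SD of 3 arrays in black. UQCR-6.4 is highest in aggressive I and lowest in neutral I, ATPsynCF6 highest in aggressive II and lowest in neutral II, ND-15 lowest in neutral I, and ND-75 and ATPsynbeta show no excess in the aggressive populations.

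The other stalk subunits and the membrane subunits of the stator had their highest population mean in aggressive I, and 4 of these 7 (ATPsynB, ATPsynD, ATPsynF and ATPsynO) their lowest in neutral I. For aggressive I against neutral I, the log2 differences were 0.22 (ATPsynB), 0.25 (ATPsynD) and 0.27 (ATPsynO) in the peripheral stalk. They were 0.21 (ATPsyngamma) and 0.24 (ATPsyndelta) in the central stalk. ATPsynE and ATPsynF, membrane subunits of the stator, gave 0.27 and 0.24. For aggressive II against neutral II all 7 lay between -0.043 and 0.077. ATPsyndelta had 28877, 28184 and 29294 on aggressive I arrays and 24892, 25803 and 25405 on aggressive II arrays, with 25908, 25723 and 24888 on those of neutral I and 25671, 23932 and 27238 on those of neutral II. Each aggressive I array was above the 9 others.

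ATPsynbeta, the catalytic subunit of the head, did not share that order. It had 7905, 7033 and 8519.9 on aggressive I arrays and 6439.8, 8726 and 8376 on aggressive II arrays, with 8830.5, 8659 and 7817 on those of neutral I and 6499.6, 7922 and 8349 on those of neutral II. The populations overlapped throughout, and the log2 difference between the regimes was -0.016 (95% interval -0.25 to 0.22). The ring subunit ATPsynC, which the proton flow turns, was measured by a pair of probe sets that disagreed. The brighter gave 36336, 31787 and 40768 in aggressive I and 32033, 31774 and 26767 in neutral I (log2 difference 0.33). The dimmer gave 657, 1185 and 1278 in aggressive I and 1182, 917 and 1308 in neutral I (-0.086), and its value for aggressive I rests on the low array 1.

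The paralogs showed no common direction, with 10 of 17 above 0 between the regimes (median log2 difference 0.054) and a median standard error of 0.21. None passed in any comparison. With single arrays left out, the difference between the regimes turned in sign or moved by over 1.5 times for 16 of the 17, UQCR-14L being the exception, as it did for 23 of the 52 other members. In complex I, ND-20L was at 0.70 for aggressive I against neutral I and -0.59 for aggressive II against neutral II, beside 0.34 and 0.096 for its parent ND-20. Its value for aggressive II against neutral II was -0.31 without array 1 of aggressive II and -0.90 without array 2 of neutral II. ND-51L1 (0.16 between the regimes), ND-51L2 (-0.033), ND-B14.5AL (0.07) and ND-24L (0.58, 95% interval -0.36 to 1.51) had parents at 0.081 (ND-51), 0.10 (ND-B14.5A) and, for ND-24, no member probe set. Of complex II, SdhAL was at 0.38, SdhBL at 0.24 and SdhCL at -0.07, all with arrays of a population that differed severalfold. They were 0.19 for SdhAL without array 2 of aggressive I, 0.0037 for SdhBL without array 3 of neutral II and 0.12 for SdhCL without array 2 of neutral II. SdhBL in neutral II, for example, had 431, 518 and 127.

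UQCR-14L was the only member with both aggressive populations wholly below neutral II. Its signal was 46.9, 119 and 52.5 on aggressive I arrays and 115, 66.1 and 88.2 on aggressive II arrays, with 58.9, 69.4 and 130.3 on those of neutral I and 176, 120.4 and 159 on those of neutral II. Neutral II was the highest population, its lowest array (120.4) lying just above the highest of aggressive I (118.8). In signal 1 neutral I array (130.3) was above that array of neutral II, but after centring neutral I too lay wholly below neutral II. Signals this low are near the added 94.6, and the log2 difference between the regimes was -0.25 (adjusted p = 0.838). It was 0.0041 without neutral II. Of complex IV, COX4L (-0.023), COX5BL (0.022), COX6AL2 (-0.12) and COX7AL (-0.0043) were all dim, with means between 33.9 and 123.5. In the RefSeq gene order 1 gene lies between COX5BL and its parent COX5B, and 2 genes lie between COX7AL and COX7A.

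Of the complex V paralogs, ATPsynepsilonL had the largest negative difference of any member. Its signal was 376, 1272 and 893 on aggressive I arrays and 975, 697 and 1224 on aggressive II arrays, with 1444, 960.3 and 1313 on those of neutral I and 1298, 1059.7 and 1259.5 on those of neutral II. Both aggressive means were below both neutral means with overlapping arrays, and the log2 difference was -0.45 (SE 0.23, adjusted p = 0.775). Without array 1 of aggressive I, the lowest, it was -0.25. ATPsynCF6L had 290.5, 585 and 170.0 on aggressive I arrays and 113, 124 and 103 on aggressive II arrays, with 222, 65.5 and 127 on those of neutral I and 198, 64.2 and 156 on those of neutral II. Its excess in aggressive I (0.94 over neutral I, adjusted p = 0.453) was the largest of any member, came with arrays that differed severalfold and was 0.59 without array 2 of aggressive I. ATPsynGL was at 0.38 and ATPsynbetaL at 0.07 between the regimes, beside -0.016 for ATPsynbeta.

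Related genes outside the name rule were set beside the members. Of 9 further subunits and electron carriers, 7 were measured by 8 probe sets (RFeSP, Cyt-c1, cype, levy, sun, blw and ox), with medians of 0.19 for aggressive I against neutral I and -0.024 for aggressive II against neutral II. Within them blw, the catalytic partner of ATPsynbeta as the alpha subunit, and sun, the epsilon subunit of the central stalk, went apart. blw had 54226, 53082 and 51995 in aggressive I against 57752, 61426 and 60886 in neutral I. sun had 37413, 31885 and 34440 in aggressive I against 27793, 28547 and 27951 in neutral I. These 2 genes were chosen after their values were seen. For aggressive I against neutral I the citric acid cycle enzymes had a median of 0.089 (10 probe sets), mitochondrial carriers 0.16 (9 probe sets), regulators of mitochondrial biogenesis 0.066 (7 probe sets) and 3 other assembly factors 0.33. No gene of these lists passed in any comparison.

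Ribosomal proteins, like the members, differed more for aggressive I against neutral I than for aggressive II against neutral II. Cytosolic ribosomal proteins (37 probe sets) had medians of 0.23 and 0.016 in these comparisons, and mitochondrial ribosomal proteins (66 probe sets) 0.16 and -0.048. The cytosolic sign for aggressive II against neutral II was opposite to that of the members. Between the regimes 35 of the 37 cytosolic probe sets were above 0 (median log2 difference 0.12). Of the 66 mitochondrial ones 42 were (0.036), beside 56 of the 69 members (0.11). On single arrays the cytosolic ribosomal medians were 0.11, 0.12 and 0.15 on aggressive I arrays and 0.11, 0.043 and -0.15 on aggressive II arrays, with -0.19, -0.058 and -0.048 on those of neutral I and -0.013, -0.0045 and -0.073 on those of neutral II. Arrays low for the members, array 3 of aggressive II and array 1 of neutral I, were thus low for ribosomal proteins too.

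Marker lists and array measures give the state of the samples. Summed signal of 19 muscle probe sets (14 of 17 listed genes) was 128931 to 139077 on aggressive I arrays and 142702 to 153613 on aggressive II arrays, with 123749 to 130070 on those of neutral I and 120987 to 128989 on those of neutral II. The aggressive II sums were the highest, and Mlc2 (mean signal 49608) was the brightest of the 19 probe sets. Between the regimes 13 of the 19 were above 0 (median log2 difference 0.096), and for aggressive I against neutral I 11 of 19 (0.028). Mlc1, the myosin alkali light chain, was the only one that passed between the regimes (0.46, SE 0.073, adjusted p = 0.046), a call lost without any 1 of the 12 arrays and with 1 mean per population. TpnC41C, a muscle troponin C, passed in both comparisons with neutral II (log2 difference 0.97 for aggressive I and 1.07 for aggressive II), the first in 6 of 12 fits without a single array and the second in 12.

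Fat body markers (5 probe sets, 4 of 5 genes) summed to 242656 to 258144 on aggressive I arrays and 203431 to 234055 on aggressive II arrays, with 196944 to 212133 on those of neutral I and 232092 to 256087 on those of neutral II. Aggressive I thus lay wholly above neutral I and overlapped neutral II. Of these sums, Lsp2 alone supplied 86603 to 91081 on aggressive I arrays and 48785 to 58330 on those of neutral I. All 5 fat body probe sets were above 0 for aggressive I against neutral I (median log2 difference 0.14). Lsp2, a larval serum protein of that list, passed for aggressive I against neutral I (0.80, adjusted p = 0.0338), for neutral I against neutral II (-0.82, adjusted p = 0.0332) and in the interaction (1.40). The first and second of these calls held in 1 of 12 fits without a single array, and that of the interaction in 12. Neuron markers (9 probe sets, 6 of 8 genes) summed to 16912 to 21420 on aggressive I arrays and 21265 to 23813 on aggressive II arrays, with 22472 to 22896 on those of neutral I and 20274 to 21146 on those of neutral II. For aggressive I against neutral I, 8 of the 9 were below 0 (median log2 difference -0.16). Only 4 of the 9 had a mean signal above the 40th percentile, the dimmer ones being several probe sets each of brp and cac. Glia markers (4 probe sets) had sums that overlapped in all populations, between 59402 and 69794. Photoreceptor markers (7 of 13 genes) summed to 544113 to 566165 on aggressive I arrays and 555052 to 633784 on aggressive II arrays, with 498322 to 589000 on those of neutral I and 507131 to 530876 on those of neutral II. Of 14 testis markers 3 had a mean signal below 94.6, and the sums of all populations overlapped, at 7514 to 8624 on aggressive I arrays and 7584 to 9835 on aggressive II arrays, with 8203 to 10890.2 on those of neutral I and 6516 to 8498 on those of neutral II. No listed marker had a signal of 0. Log2 18S rRNA signal averaged 13.3 on aggressive I arrays and 11.8 on aggressive II arrays, with 12.1 on those of neutral I and 12.3 on those of neutral II. Array 2 was the highest of aggressive I (12.69, 14.34 and 12.75 on arrays 1 to 3). Each aggressive I array lay above every array of aggressive II (at most 11.93) and of neutral I (at most 12.16). Array 2 of neutral II (12.965) lay above arrays 1 and 3 of aggressive I. Log2 signal of the hybridisation spike-ins averaged 13.8 on aggressive I arrays and 13.9 on aggressive II arrays, with 13.6 on those of neutral I and 13.7 on those of neutral II. Log2 3 prime over 5 prime ratios of control probe sets follow in the order aggressive I, aggressive II, neutral I, neutral II. They averaged 2.23, 2.01, 2.04 and 1.82 for GAPDH, 1.27, 0.87, 1.36 and 1.19 for actin, and 1.89, 1.67, 1.92 and 1.55 for eIF-4a. Array 3 of aggressive II, array 1 of neutral I and array 3 of neutral II were lowest for GAPDH (1.72, 1.83 and 1.61). They were also lowest for actin (0.45, 0.82 and 0.92) but not for eIF-4a (1.87, 1.83 and 1.70). These array measures are given as values, since arrays of a population are not replicates of a regime. The part of the markers and array measures in the members' differences was not tested.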

How the data were processed

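The deposited values are probe set intensities of 14010 probe sets on 12 Affymetrix arrays, 1 per sample, made with MAS5 per the submitters' processing notes; its version is not given in the sources used here. All arrays have a trimmed mean of 2500 (2% of probe sets set aside at each end), which removes differences in total RNA. Titles gave the groups and array numbers; 2 neutral I arrays lack the word selected in their line label and stayed in the group of their title.

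The 44 control probe sets were left out. Deposited intensities were turned into log2(intensity + 94.6), 94.6 being their 10th percentile, and centred on each array's median; fold changes of dim probe sets are understated on this scale. limma 3.58.1 (lmFit, eBayes), run under R 4.3.3 and statmod 1.5.0, tested all 13966 probe sets, which were also the family for the Benjamini-Hochberg adjustment. The regime comparison took population as a random block (consensus correlation 0.0113); the other comparisons used 1 fixed mean per population, with the spread between arrays as error. With 2 populations per regime and 3 arrays per population, precision is limited. The code was tested on simulated data.

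Probe sets were named with the array annotation and RefSeq symbols (assembly Release 6 plus ISO1 MT), which all 69 members matched. Members and lists were chosen with earlier results of these data known. Named by rule were, per complex, the 4 members with the smallest p between the regimes and the extremes of both numbered pairs, every member called, all Sdh subunits, paralogs with parents and genes with several probe sets; members outside the rule were named to account for all of them. Alternatives covered pseudocount, centring, filters, variance model, population model and arrays or populations left out. Same-numbered arrays did not deviate together (correlations from -0.057 to 0.032 in 18 pairs), so numbers were not used as pairs. Promoter motifs and sequences were not analysed here.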

Additional observations from a re-analysis of the deposited data

Results flagged for a closer look

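After centring, 3 accessory subunits of complex I had all 3 arrays of aggressive I above all 3 of neutral I. All 3 of their aggressive II arrays lay below all 3 of neutral II. They were 4.35% of the members, against 1.15% of all probe sets. In signal, array 3 of aggressive I (552.2) lay below array 3 of neutral I (562.7) for ND-B8. The interaction of regime with pair was 0.93 on the log2 scale for ND-B8 (SE 0.26, limma adjusted p = 0.339), 0.47 for ND-B18 (SE 0.18, adjusted p = 0.501) and 0.38 for ND-B17 (SE 0.16, adjusted p = 0.538). None passed the threshold, and the pairs were matched by population number only.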

How the results depend on the processing

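No member passed in the regime comparison under any alternative run. The count of all probe sets called there (10) was 16 with a filter at the 40th percentile of signal, 25 at the 60th, 36 with the trended and robust variance, 36 with fixed population means and 0 with 1 mean per population (limma, 767 at an unadjusted p under 0.05). It was 42 without aggressive I, 44 without aggressive II, 23 without neutral I and 2 without neutral II. Without single arrays it ran from 3 (without neutral II array 1) to 10, the other losses over 1.5 times being without aggressive II arrays 2 and 3, neutral I array 1 and neutral II arrays 2 and 3. The replicate block, which pairs arrays by number, gave 5 calls, left 0 members called and changed no member's call elsewhere.

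The members' median log2 difference between the regimes (0.11) was 0.01849 without aggressive I, 0.2093 without aggressive II and 0.1732 without neutral II. For aggressive I against neutral I (0.27) it was 0.2036 without centring, 0.1231 with quantile normalization and 0.1662 with centring on the bright probe sets, and the count of members wholly above (41) was 22 and 21 under the last 2 of these. The interaction's median (0.29) was 0.1911, 0.1338 and 0.1345 under those 3 scalings. The sign for aggressive II against neutral II (-0.028) turned under them, to 0.00231, 0.003435 and 0.02153, and ran from -0.06368 to 0.008054 without single arrays, turning without aggressive II array 3. Quantile normalization gave 0.09923 for aggressive I against neutral II, 0.08416 for aggressive I against aggressive II and -0.04009 for neutral I against neutral II, and centring on the bright probe sets gave 0.08471 and -0.02057 for the last 2. Centring on bright probe sets and the counts of separate arrays under the alternatives were chosen after seeing the data.

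With the trended and robust variance, 3 members passed for aggressive I against neutral I, where 0.444% of all probe sets did. A single member passed for aggressive II against neutral II (0.687% of all probe sets), the interaction (0.451%), aggressive I against aggressive II (0.644%) and neutral I against neutral II (0.329%). Without that variance model the shares of all probe sets were 0.15%, 0.301%, 0.2%, 0.186% and 0.115%, in the same order. For neutral I against neutral II the filter at the 60th percentile also left 1 member, beside 0.841% of the 5586 probe sets tested. Signs of small differences turned for SdhBL in aggressive I against neutral I (0.007794 with pseudocount 1, 0.0191 with quantile normalization, -0.4561 to 0.41 without single arrays) and for UQCR-14L there (0.0007401 with the pseudocount at the 25th percentile, -0.2281 to 0.1043 without single arrays). Between the regimes UQCR-14L was 0.004082 without neutral II, and UQCR-14 was 0.03076 without aggressive II, 0.1537 without neutral II and -0.1314 to 0.09212 without single arrays. Without single arrays the range also crossed 0 for ND-51L2 in aggressive I against neutral I (-0.6007 to 0.3092). In aggressive II against neutral II it did so for ND-24L (-0.05623 to 1.119), UQCR-Q (-0.008019 to 0.1288), COX4L (-0.1179 to 0.4235), COX5BL (-0.4002 to 0.0223) and Sdhaf3 (-0.07456 to 0.3312). The cause of these changes was not tested. Dim probe sets, paralogs above all, limit what could be detected.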
